A study of Homo sapiens with 6 samples.

Results

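The RNA levels of 9 transcription factors that mark or shape the prostate lineage were followed in enzalutamide-resistant prostate cancer cells treated with inhibitors of the chaperone HSP70. The 9 genes, FOXA1, HOXB13, GATA2, SPDEF, ERG, ETV1, GRHL2, SOX9 and TRPS1, were taken by name from the 60658 Ensembl identifiers in the expression tables, and all 9 were listed. Cells of 2 human lines were used, with 1 library for each of 6 conditions and no replicate, so no spread between replicates is known and no p-value is given. C4-2B MDVR is a derivative of C4-2B (itself from LNCaP) that was made resistant to enzalutamide, an antiandrogen drug, and its culture medium held 20 µM of the drug. CWR22Rv1 is a line that grew from a relapsed prostate tumour xenograft, and its medium held no enzalutamide. Each line received DMSO (the solvent control), 10 µM apoptozole (APO) or 10 µM VER155008 (VER) over 48 h. Both compounds block the ATPase of HSP70. Titles of the first 3 libraries name C4-2B MDVR, whereas their source and cell type labels read LNCaP-C4-2B and parental. Each line is a single culture model without stroma or host cells.

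Levels are given as FPKM, which scales the fragments of a gene by its length and by the size of the library and allows levels of different genes to be compared per length. Changes were computed on the scale of log2(FPKM + 0.1), as one library minus another, so that -1 is a halving of the level. The added 0.1 understates changes of genes near that level. A gene entered a comparison when it exceeded 0.1 FPKM in at least 1 library of the line (of the 2 DMSO libraries where lines were compared). It was called higher or lower above a 1.2-fold change, the threshold of the study. Read totals were not used here. Ratios of the lowest values between libraries gave relative depths of 1 for C4-2B MDVR with DMSO and between 1.15 and 1.63 for the others. The mitochondrial genes took 14.8% to 16.4% of the summed FPKM in the C4-2B MDVR libraries. In CWR22Rv1 cells they took 25.7% with DMSO, 10.4% with APO and 25.7% with VER. Of 13 luminal prostate markers, 12 or 13 exceeded 1 FPKM in every library, with summed levels of 1062 to 1524 FPKM. The basal markers KRT5, KRT6A and TP63 were listed at 0 in all 6 libraries, and all 7 basal markers summed to 0.720 to 6.05 FPKM. Fibroblast markers summed to 5.16 to 10.9 FPKM, endothelial or blood markers to 0.307 to 3.88 FPKM and mesenchymal markers to 35.1 to 163 FPKM. Neuroendocrine markers summed to 15.7 to 22.3 FPKM in C4-2B MDVR libraries and 103 to 174 FPKM in CWR22Rv1 libraries, with CHGA listed at 0 in the former line and at 8.64 to 11.7 FPKM in the latter.

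Lineage factors set which enhancers are used in prostate epithelium. FOXA1, a forkhead protein, and GATA2, a zinc finger protein, are pioneer factors that open chromatin at enhancers. HOXB13 is a homeobox factor that fixes posterior identity in the prostate. SPDEF is an ETS factor of secretory epithelium, while ERG and ETV1 are ETS factors best known in this tissue for gene fusions in cancer. GRHL2 is a grainyhead factor that maintains epithelial junction genes, SOX9 is an HMG-box factor of progenitor cells, and TRPS1 is an atypical GATA-type repressor.

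Sequence upstream of RefSeq starts is shown for 3 of the members that were lower with APO in C4-2B MDVR cells and for ETV1, whose 2 inhibitor responses in CWR22Rv1 cells had opposite sign. The table of promoter sequences held 5 of the 9 members. Each run is on the minus strand of GRCh38.p14 and ends toward the start. Bases of a GENCODE exon next to the start were left out, which were 99 for FOXA1 and 4 for SPDEF. The windows are chr14:37595349-37595499 for FOXA1, chr3:128493202-128493451 for GATA2, chr6:34556334-34556579 for SPDEF and chr7:13990703-13990952 for ETV1. GATA2 has 2 starts in the table and ETV1 has 6, and the first listed was taken. All 250 bases of the FOXA1 and ETV1 windows lie within the GENCODE span of the gene. They are thus upstream of the RefSeq start used and not of the whole annotated gene. Capitals mark matches on either strand to the motifs named after the sequences.
FOXA1: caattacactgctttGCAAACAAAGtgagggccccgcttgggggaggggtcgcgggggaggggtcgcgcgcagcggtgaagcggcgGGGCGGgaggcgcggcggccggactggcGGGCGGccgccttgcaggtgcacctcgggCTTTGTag
GATA2: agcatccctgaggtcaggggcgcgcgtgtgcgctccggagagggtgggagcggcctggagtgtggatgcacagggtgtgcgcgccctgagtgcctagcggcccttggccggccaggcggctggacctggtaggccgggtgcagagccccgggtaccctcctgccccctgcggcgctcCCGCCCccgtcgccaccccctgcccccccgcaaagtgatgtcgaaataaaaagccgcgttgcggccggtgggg
SPDEF: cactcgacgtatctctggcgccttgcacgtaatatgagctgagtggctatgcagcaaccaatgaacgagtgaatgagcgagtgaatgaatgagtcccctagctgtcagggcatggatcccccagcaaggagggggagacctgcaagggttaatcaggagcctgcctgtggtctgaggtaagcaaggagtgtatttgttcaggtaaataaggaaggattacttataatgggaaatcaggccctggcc
ETV1: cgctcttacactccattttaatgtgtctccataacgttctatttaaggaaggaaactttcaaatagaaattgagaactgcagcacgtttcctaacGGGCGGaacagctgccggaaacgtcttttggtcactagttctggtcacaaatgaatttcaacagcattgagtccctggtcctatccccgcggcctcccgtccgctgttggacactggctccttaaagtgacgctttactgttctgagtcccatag

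The motifs searched, with the share of 35116 RefSeq promoter windows of 250 bases that hold each on either strand, were forkhead TGTTTAC (2.98%) and TGTTTGC (3.23%), AGATAA for GATA factors (9.17%), ETS CGGAAG (16.5%), SOX ACAAAG (13.7%), HOX13 CCAATAAA (0.863%), grainyhead AACCGGTT (0.117%) and the GC box GGGCGG (42.6%). In the full 250 bases, FOXA1 held the reverse complement of TGTTTGC starting 235 bases before the start, and an ACAAAG that overlaps it at 231 bases. It also held reverse SOX matches at 107 and 89 bases, the latter in the exon part that is not printed, and GC boxes at 164 and 136 bases. GATA2 held a single reverse GC box at 73 bases. ETV1 held a GC box at 155 bases. None of these letters occurred in the SPDEF window. These are matches of letters and not measured binding sites. The windows of FOXA1 and GATA2 had 67.2% and 72.8% G and C bases with 26 and 24 CpG pairs, and those of SPDEF and ETV1 had 50.8% and 47.2% with 6 and 12 pairs. Over all promoter windows the median was 58% with 11 CpG pairs.

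The members differed widely in abundance. FOXA1 was the most abundant member in all 6 libraries and supplied 38.8% to 49.6% of the summed FPKM of the members. HOXB13, GATA2 and SPDEF followed in changing order at 24.4 to 137 FPKM, and GRHL2 was the fifth in every library. TRPS1 and SOX9 lay between 3.43 and 12.3 FPKM. ERG and ETV1 were the lowest members in the C4-2B MDVR libraries, whereas ETV1 reached 21.8 FPKM in CWR22Rv1 cells. The 9 members together gave, in C4-2B MDVR cells, 646 FPKM with DMSO, 235 FPKM with APO and 411 FPKM with VER. In CWR22Rv1 cells they gave 503, 390.4 and 418 FPKM. In RNA of whole cultures, fewer cells of a type and less RNA per cell cannot be told apart. Several neighbours in this order were nearly equal. In the C4-2B MDVR DMSO library HOXB13 exceeded GATA2 by 1.04-fold and TRPS1 exceeded SOX9 by 1.03-fold, and without replicates such an order is not established.

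**Figure D1:**
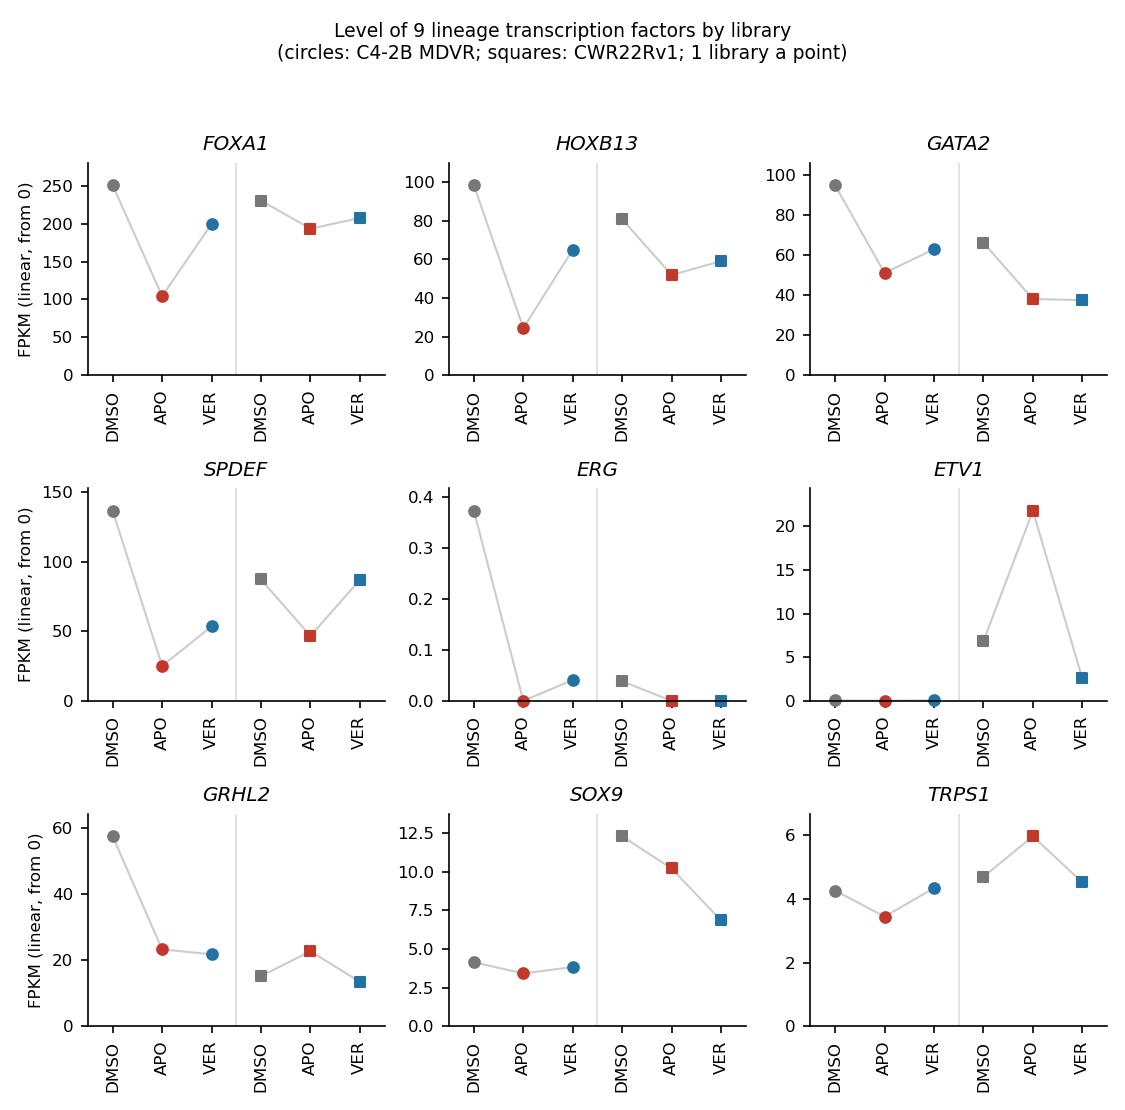
FPKM (linear axis from 0) of each of the 9 members in the 6 libraries, with circles for C4-2B MDVR, squares for CWR22Rv1 and 1 point for each library. FOXA1 ranged from 104 to 250.3 FPKM and ERG never exceeded 0.372 FPKM.

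FOXA1 (ENSG00000129514, GRCh38 chr14:37589984-37596059, minus strand) was lower with APO mainly in C4-2B MDVR cells. In that line it stood at 250.3 FPKM with DMSO, 104 FPKM with APO and 199.6 FPKM with VER. APO gave a change of -1.26 and VER one of -0.33. In CWR22Rv1 cells it stood at 230.2, 193 and 207 FPKM in the same order, and the changes of -0.25 and -0.15 were both under 1.2-fold. The APO library of C4-2B MDVR stood below the other 5 libraries, which lay between 193 and 250.3 FPKM.

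HOXB13 (ENSG00000159184, chr17:48724763-48729178, minus strand) had one of the steepest differences. It stood at 98.2 FPKM with DMSO, 24.4 FPKM with APO and 65.0 FPKM with VER in C4-2B MDVR cells. It was thus lower by 4.01-fold with APO and by 1.51-fold with VER. In CWR22Rv1 cells the levels were 80.6, 51.8 and 59.0 FPKM, changes of -0.64 and -0.45. Both inhibitor libraries were below DMSO in each line, and APO was below VER.

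GATA2 (ENSG00000179348, chr3:128479427-128493185, minus strand) was lower by similar amounts in both lines. C4-2B MDVR cells had 94.7 FPKM with DMSO, 51.0 FPKM with APO and 63.0 FPKM with VER, changes of -0.89 and -0.59. CWR22Rv1 cells had 66.2, 38.0 and 37.5 FPKM, changes of -0.80 and -0.82. All 4 inhibitor libraries were below the DMSO library of their line.

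SPDEF (ENSG00000124664, chr6:34537802-34556333, minus strand) showed the greatest difference with APO among the abundant members. Its levels in C4-2B MDVR cells were 137 FPKM with DMSO, 25.2 FPKM with APO and 53.5 FPKM with VER, changes of -2.44 and -1.35. In CWR22Rv1 cells they were 87.3, 46.7 and 87.0 FPKM, so that APO gave -0.90 and the VER library was level with DMSO.

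GRHL2 (ENSG00000083307, GRCh38 chr8:101492432-101669726, plus strand) changed in opposite directions in the lines with APO. In C4-2B MDVR cells it stood at 57.4 FPKM with DMSO, 23.3 FPKM with APO and 21.8 FPKM with VER, changes of -1.30 and -1.39. In CWR22Rv1 cells it stood at 15.2, 22.7 and 13.5 FPKM, changes of 0.58 and -0.17. The 3 CWR22Rv1 libraries and the inhibitor libraries of C4-2B MDVR all lay between 13.5 and 23.3 FPKM, and the C4-2B MDVR DMSO library stood above them.

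SOX9 (ENSG00000125398, chr17:72121020-72126420, plus strand) and TRPS1 (ENSG00000104447, chr8:115408496-115809673, minus strand) moved least in C4-2B MDVR cells. SOX9 stood there at 4.14 FPKM with DMSO, 3.43 FPKM with APO and 3.84 FPKM with VER. In CWR22Rv1 cells SOX9 stood at 12.3, 10.2 and 6.84 FPKM, and its change with VER was -0.83. Its changes with APO, -0.27 in each line, were just past 1.2-fold. TRPS1 ranged only from 3.44 to 5.96 FPKM over all 6 libraries, with changes for C4-2B MDVR of -0.30 (APO) and 0.03 (VER) and for CWR22Rv1 of 0.34 and -0.05.

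ETV1 (ENSG00000006468, chr7:13891228-13991425, minus strand) exceeded 0.1 FPKM in CWR22Rv1 cells only. It stood there at 6.85 FPKM with DMSO, 21.8 FPKM with APO and 2.60 FPKM with VER. APO gave 1.66 and VER gave -1.37, so the inhibitors lay on opposite sides of the control. In C4-2B MDVR cells it was listed at 0.0484, 0.0310 and 0.0626 FPKM and did not pass the filter. LNCaP cells, from which C4-2B derives, are known for a rearranged ETV1 gene, and the level under 0.1 FPKM in the libraries labelled C4-2B MDVR is given beside that background. ERG (ENSG00000157554, chr21:38380027-38661780, minus strand) was at 0.372 FPKM in the DMSO library of C4-2B MDVR and at 0.0409 FPKM in its VER library, and was listed at 0 with APO. In CWR22Rv1 cells it was at 0.0385 FPKM with DMSO and listed at 0 with both inhibitors. These levels are too low for a fold change to be read. ERG passed the filter in C4-2B MDVR cells only through the DMSO library, where it was highest. Counts are therefore given without it unless stated.

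With APO in C4-2B MDVR cells, 8 members passed the filter, and the 7 besides ERG were all lower, against 35.4% of the 20122 genes compared that were lower and 37.7% that were higher. The median change of the 7 was -1.26 (-1.28 with ERG), beside a median of 0 over all genes. More than 2-fold lower were 4 of them, FOXA1, HOXB13, SPDEF and GRHL2, against 13.3% of all genes. Among the 7714 genes with a mean over 10 FPKM in this line, 0.324% were lowered as much as SPDEF and 0.687% as much as HOXB13. The shares were 3.06% for GRHL2, 3.36% for FOXA1 and 8.24% for GATA2.

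With VER the C4-2B MDVR line gave 5 lower members besides ERG, 0 higher and 2 not called (SOX9 and TRPS1), where 34.9% of all genes were lower and 35.6% higher. The median was -0.59 with or without ERG. SPDEF and GRHL2 were lower by more than 2-fold, as were 13.3% of all genes. Of genes over 10 FPKM, 3.03% were lowered as much as GRHL2 and 3.18% as much as SPDEF. The shares were 14.9% for HOXB13, 15.1% for GATA2 and 28.5% for FOXA1. The APO and VER comparisons share the DMSO library of the line, so an error in it would enter both.

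The CWR22Rv1 cells gave a mixed picture with APO. Of 8 members that passed, HOXB13, GATA2, SPDEF and SOX9 were lower and ETV1, GRHL2 and TRPS1 were higher, with FOXA1 not called, beside 39.2% of 21608 genes lower and 35.6% higher. The median was -0.26, beside -0.01 over all genes. None of the members was lower by more than 2-fold, which 16.8% of all genes were, and ETV1 alone was higher by more than 2-fold. Of all genes compared, 5.84% were raised as much as ETV1. The APO library of this line had the low mitochondrial share given above. Rescaled to equal sums outside the mitochondrial chromosome, a choice made after the data were seen, the change of FOXA1 was -0.41 and that of TRPS1 0.19, which puts FOXA1 past the threshold and TRPS1 within it. The median of the members was then -0.41. Rescaling all libraries to the same total (TPM) moved it the other way, to -0.14, and the change of SOX9 to -0.15, within 1.2-fold. Neuroendocrine markers were also lowest in this library of the line, with a sum of 103 FPKM, and their part in the result was not tested.

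With VER in CWR22Rv1 cells, HOXB13, GATA2, ETV1 and SOX9 were lower, 0 members were higher and 4 were not called. Lower were 32.3% and higher 32.1% of all genes. The median of the members was -0.31. ETV1 was lower by more than 2-fold, as were 8.92% of all genes. Of all genes compared, 5.06% were lowered as much as ETV1. Among 7603 genes with a mean over 10 FPKM, 3.77% were lowered as much as GATA2.

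**Figure D2:**
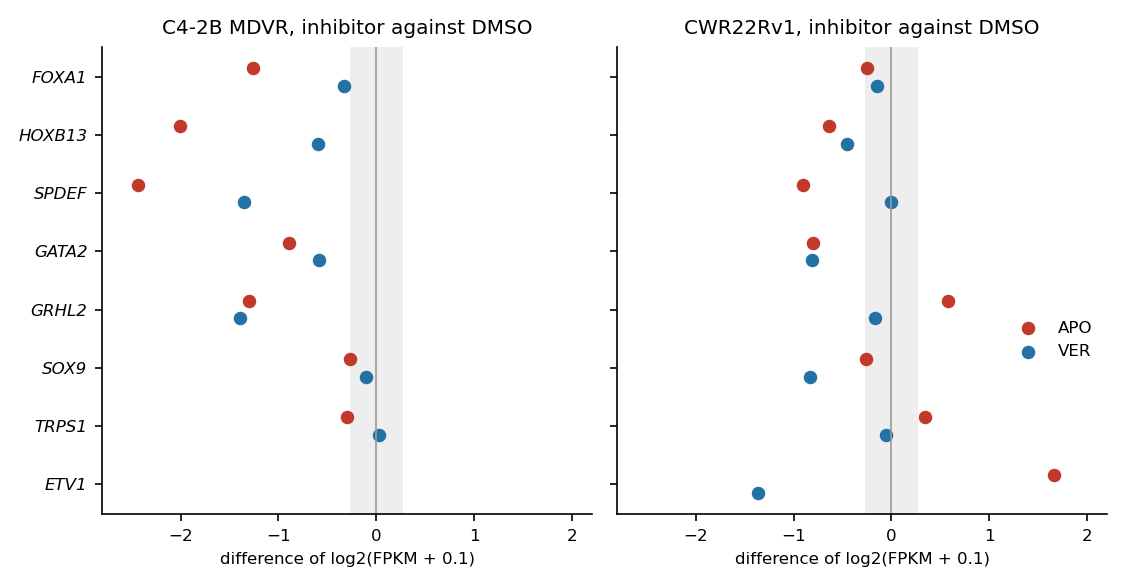
Difference of log2(FPKM + 0.1) between inhibitor and DMSO for 8 members in each line, with red for APO, blue for VER and the grey band for changes within 1.2-fold. ERG is left out because it was listed at 0 in 3 libraries, and ETV1 is shown only in CWR22Rv1, where APO gave 1.66 and VER gave -1.37.

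The inhibitors were next compared directly at the same dose and time. In C4-2B MDVR cells 5 members were higher with VER than with APO and 0 lower, ERG left out, beside 28.5% and 32.5% of all genes. The differences were 1.41 for HOXB13, 1.09 for SPDEF, 0.93 for FOXA1, 0.30 for GATA2 and 0.32 for TRPS1. GRHL2 (-0.09) and SOX9 (0.16) were within 1.2-fold. The median was 0.32 (0.41 with ERG). In CWR22Rv1 cells SPDEF was higher with VER by 0.90. Lower with VER were ETV1 (-3.02), GRHL2 (-0.75), SOX9 (-0.57) and TRPS1 (-0.39), and FOXA1, HOXB13 and GATA2 were not called. These counts of 1 higher and 4 lower stand beside 37.3% and 34.5% of all genes, and the median was -0.21. Of all genes compared in this line, 0.708% were as much lower with VER than with APO as ETV1.

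Between the lines with DMSO alone, all 9 members passed. Without ERG, 4 were higher in C4-2B MDVR and 2 were lower, beside 39.2% and 43.2% of 20903 genes. GRHL2 was higher by 1.91, SPDEF by 0.65, GATA2 by 0.52 and HOXB13 by 0.28. The difference was -5.55 for ETV1 and -1.55 for SOX9, the 2 lower members counted. ETV1 passed only through the CWR22Rv1 library, where it was high, and was at 0.0484 FPKM in C4-2B MDVR cells. The size of its difference therefore depends on the added 0.1. It was -6.88 with 0.01 added and -2.90 with 1 added. FOXA1 (0.12) and TRPS1 (-0.14) were not called. The median was 0.20 without ERG and 0.28 with it, beside -0.05 over all genes. The lines differ in origin and in enzalutamide in the medium, which cannot be told apart here. The study describes both lines as resistant to enzalutamide.

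The gap between the lines in the response to APO was largest for GRHL2. Its change in C4-2B MDVR minus that in CWR22Rv1 was -1.88, and 9.06% of 18059 genes compared in both lines differed by as much. The corresponding gaps were -1.53 for SPDEF (13.0% of genes), -1.37 for HOXB13 (15.7%), -1.01 for FOXA1 (24.5%) and -0.64 for TRPS1 (41.4%). GATA2 differed by -0.09, less than 89.9% of genes. None of these gaps could be tested with 1 library a condition.

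The patterns of the members over the libraries were compared by the root mean square difference of their log2 levels, each centred over the 6 libraries, where a smaller value means a closer pattern. FOXA1 and HOXB13 were the closest pair (0.247), followed by HOXB13 and SPDEF (0.305). Both pairs were lower with APO than with VER in C4-2B MDVR cells. Such closeness was not particular to the members, as 122 of 14240 other genes lay under 0.25 from FOXA1 and 10 from HOXB13.

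**Figure D3:**
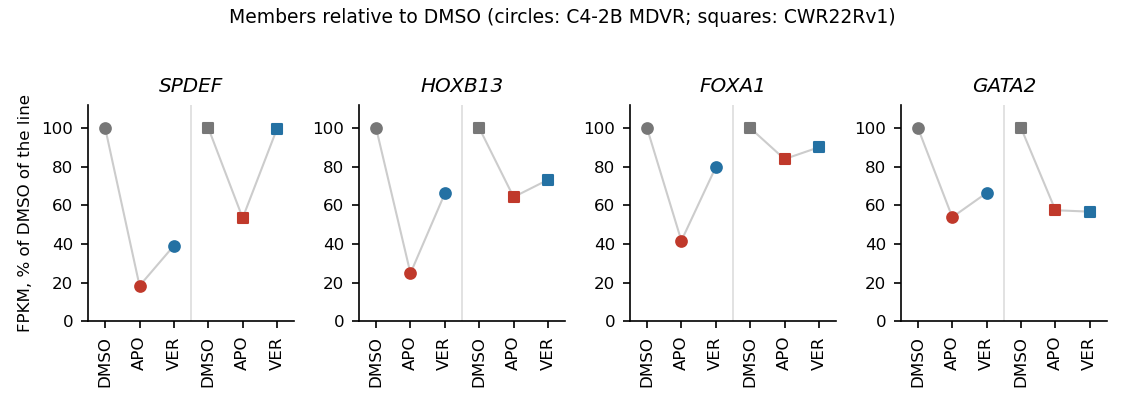
FPKM of SPDEF, HOXB13, FOXA1 and GATA2 as a percent of the DMSO library of the same line (linear axis from 0), with circles for C4-2B MDVR and squares for CWR22Rv1. All 4 genes were lowest with APO in C4-2B MDVR, and SPDEF with VER stood at the DMSO level in CWR22Rv1 cells.

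Among 14240 other genes averaging 1 FPKM or more, those near HOXB13 by the same measure included ELFN1-AS1 (0.153) and TFAP4 (0.211). The closest were LINC01123 (0.092), TRIM65 (0.116) and TCAF1P1 (0.119) for FOXA1, and DNAJC11 (0.078), NR2F6 (0.093) and PGAM1 (0.094) for GATA2. For SPDEF they were NAV1 (0.242), B4GALNT4 (0.25) and CLCN2 (0.260). GRHL2 was followed most closely by ZNF628 (0.156), PDLIM5 (0.169) and ODC1 (0.177). SOX9 had AC005034.3 (0.102), GLI1 (0.135) and CCHCR1 (0.149) as its nearest, and TRPS1 had PARP16 (0.068), UBR1 (0.080) and MAPK14 (0.082). ETV1 had no near neighbour, with MEF2C (0.340), LRRC43 (0.449) and ABLIM3 (0.454) as the closest. The 6 libraries give little room to tell patterns apart.

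Other genes of the same families and pathways were taken from lists, with the medians of their changes to be read beside all-gene medians between -0.01 and 0 and the shares of all genes given above. Of 21 partners and cofactors of these factors, 19 passed in C4-2B MDVR cells. With APO 2 were higher and 11 lower (median -0.60), and with VER 4 were higher and 11 lower (median -0.40). In CWR22Rv1 cells 20 passed, with 8 higher and 8 lower with APO (median -0.08) and 2 higher and 12 lower with VER (median -0.31). SMARCA4, the ATPase of SWI/SNF remodelling complexes, stood at 65.0, 28.9 and 31.5 FPKM in C4-2B MDVR and at 59.5, 40.8 and 36.1 FPKM in CWR22Rv1 cells with DMSO, APO and VER. The corepressor TLE3 stood at 46.8, 27.6 and 35.3 FPKM and at 57.6, 19.4 and 23.9 FPKM. The glucocorticoid receptor gene NR3C1 was listed at 0, 0.126 and 0.101 FPKM in C4-2B MDVR cells and stood at 3.53, 10.3 and 5.57 FPKM in CWR22Rv1 cells.

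The 25 ETS genes outside the members had no common direction. With APO 7 were higher and 11 lower of 24 in C4-2B MDVR cells (median -0.07) and 7 higher and 6 lower of 23 in CWR22Rv1 cells (median 0.17). With VER 7 were higher and 11 lower (median -0.13), and 6 higher and 7 lower (median -0.03). ELF3, an epithelial ETS factor, stood at 21.1 FPKM with DMSO, 53.1 FPKM with APO and 37.8 FPKM with VER in the C4-2B MDVR libraries and at 25.0, 84.7 and 37.1 FPKM in those of CWR22Rv1, above DMSO in all 4 inhibitor libraries. ERF, an ETS repressor, stood at 20.0, 11.8 and 13.3 FPKM and at 31.6, 22.3 and 21.0 FPKM, and ELF4 was also lower in all 4. The genes ETV4 and ETV5 form the PEA3 group with ETV1, and they and EHF are named here after their values were seen. ETV4 stood at 9.30, 12.9 and 3.16 FPKM and ETV5 at 5.02, 19.8 and 2.71 FPKM in CWR22Rv1 cells, so APO lay above DMSO and VER below it for all 3 genes. In C4-2B MDVR cells ETV4 stood at 1.06, 1.56 and 1.55 FPKM and ETV5 at 0.225, 4.39 and 0.462 FPKM. EHF stood at 162.5, 62.7 and 105.9 FPKM in C4-2B MDVR cells and at 17.7, 19.1 and 16.6 FPKM in CWR22Rv1 cells.

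**Figure D4:**
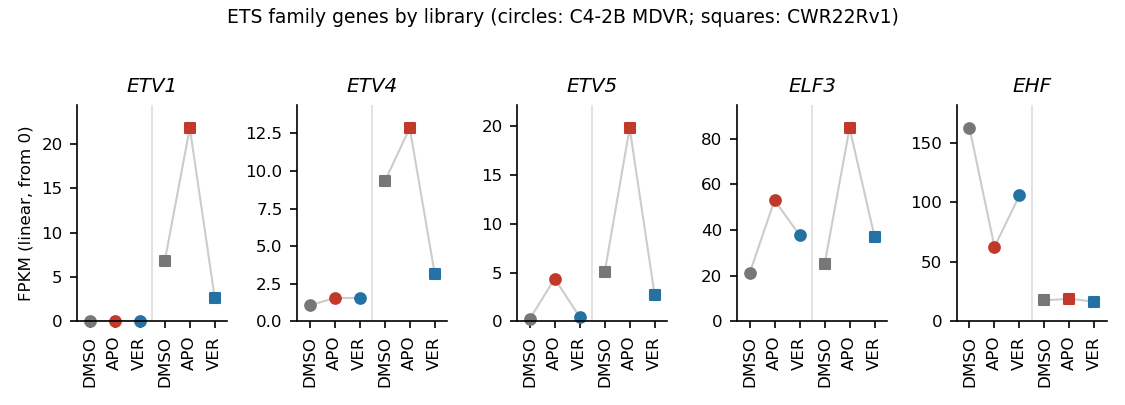
FPKM (linear axis from 0) of ETV1, ETV4, ETV5, ELF3 and EHF in the 6 libraries, with circles for C4-2B MDVR and squares for CWR22Rv1. In CWR22Rv1 cells ETV1, ETV4 and ETV5 were above DMSO with APO and below it with VER.

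Paralogs of the other members were mostly low. Of 14, 7 passed in C4-2B MDVR cells, with 4 higher and 1 lower with APO (median 0.37) and with VER (median 0.35). In CWR22Rv1 cells 8 passed, with 6 higher and 1 lower with APO (median 0.65) and 2 and 2 with VER (median 0.15). HOXC13, a paralog of HOXB13, stood at 7.96, 9.15 and 10.2 FPKM in C4-2B MDVR cells and 4.61, 11.0 and 4.89 FPKM in CWR22Rv1 cells with DMSO, APO and VER, so only its APO change in the latter was large (1.24). The 9 other HOXB genes were of mixed direction in C4-2B MDVR cells, where 3 of 6 were higher and 1 lower with APO and 3 higher and 2 lower with VER (medians 0.24 and 0.51). In CWR22Rv1 cells 2 of 8 were higher and 6 lower with APO, and 0 higher and 4 lower with VER (medians -0.42 and -0.36). HOXB5 stood at 0.869, 0.614 and 0.609 FPKM and at 7.71, 4.48 and 4.05 FPKM.

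Epithelial genes of the kind that GRHL2 controls, 12 in all, all passed. With APO 7 were higher and 3 lower in C4-2B MDVR cells (median 0.53), and 4 higher and 6 lower in CWR22Rv1 cells (median -0.38). With VER 6 were higher and 3 lower (median 0.32), and 5 higher and 2 lower (median 0.09). The splicing regulators ESRP1 and ESRP2 went opposite ways. ESRP1 stood at 37.5, 101.6 and 76.0 FPKM in C4-2B MDVR cells and at 45.4, 133 and 70.2 FPKM in CWR22Rv1 cells. ESRP2 stood at 28.8, 13.5 and 18.1 FPKM and at 38.3, 17.8 and 24.7 FPKM. The tight junction gene CLDN7 stood at 333, 1240.1 and 727 FPKM and at 391, 874 and 577 FPKM, higher with both inhibitors in both lines.

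The luminal genes, which mark the secretory cells of the prostate, were mostly lower with APO in both lines, 10 of 13 in C4-2B MDVR (median -1.26) and 9 of 13 in CWR22Rv1 cells (median -1.15). With VER 6 and 4 of 13 were lower and 3 were higher in each line (medians 0.12 and 0). KLK3, which encodes prostate-specific antigen, stood at 77.8, 8.84 and 24.4 FPKM in C4-2B MDVR cells and at 30.2, 2.33 and 22.7 FPKM in CWR22Rv1 cells. KLK2 and SLC45A3 were also lower in all 4 inhibitor libraries. Other luminal genes went the other way, and those named next were picked after their values were seen. Higher with APO were KRT8 (0.61) and KRT18 (0.41) in the C4-2B MDVR line. In CWR22Rv1 cells 3 were higher with APO, among them KRT8 (0.40) and KRT18 (0.94). The 3 genes higher with VER were ACPP (1.10), STEAP2 (0.51) and KLK4 (0.50) in the former line. They were ACPP (0.50), FOLH1 (0.47) and TMPRSS2 (0.36) in the latter.

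Genes on the opposite strand overlap some members, and the strand setting of the counting is not given in the sources used here, so reads of overlapping exons could not be told apart. GENCODE 29 places TTC6 over 213 bases of FOXA1 with 16 shared exon bases. TTC6 stood at 18.6, 5.68 and 8.69 FPKM in C4-2B MDVR cells and at 5.22, 2.62 and 6.91 FPKM in CWR22Rv1 cells. GATA2-AS1 overlaps 3974 bases of GATA2 without a shared exon base, and its span also takes in the GATA2 window printed above. It stood at 57.8, 62.9 and 50.3 FPKM and at 33.3, 31.4 and 23.4 FPKM, so that with APO in C4-2B MDVR cells it was within 1.2-fold of DMSO while GATA2 was lower by 1.85-fold. SOX9-AS1 spans all 5401 bases of SOX9 without a shared exon base. It was listed at 0 in the 3 C4-2B MDVR libraries and stood at 2.61, 5.72 and 6.44 FPKM in CWR22Rv1 cells, above DMSO with both inhibitors where SOX9 was below. AP001207.3 shares 50 exon bases with GRHL2 and did not exceed 0.751 FPKM.

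**Figure D5:**
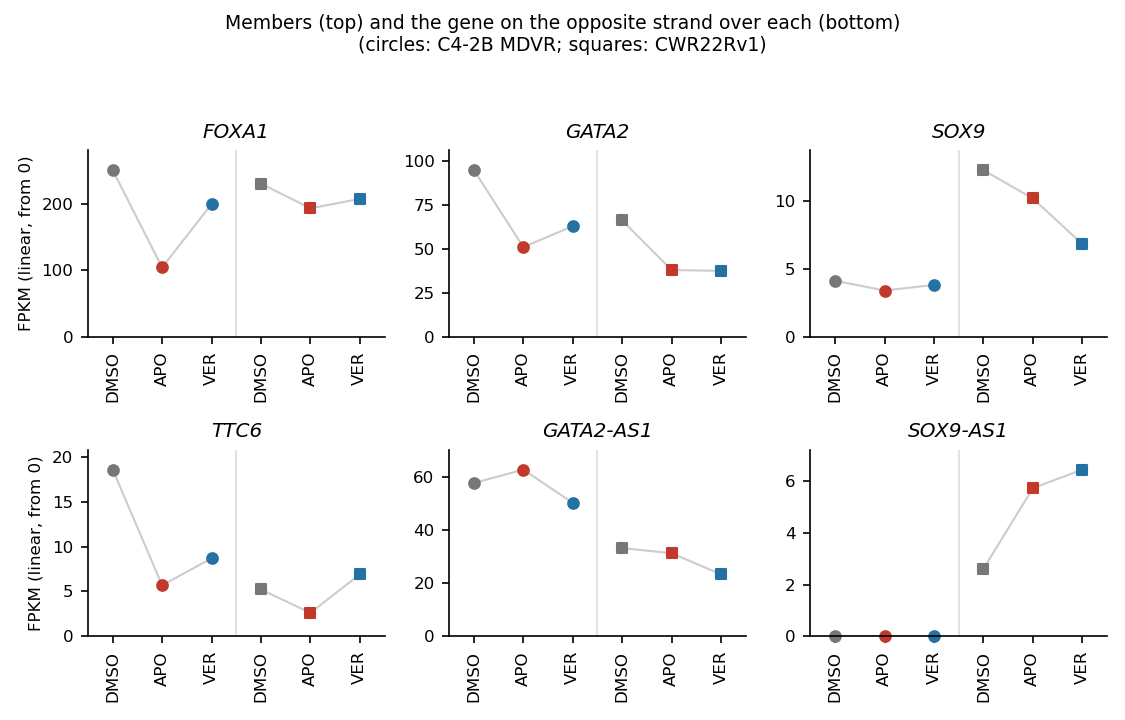
FPKM (linear axis from 0) of FOXA1, GATA2 and SOX9 (top) and of the opposite-strand genes TTC6, GATA2-AS1 and SOX9-AS1 (bottom) in the 6 libraries. With APO in C4-2B MDVR cells TTC6 was lower, as FOXA1 was. In CWR22Rv1 cells TTC6 was lower with APO (-0.97), while FOXA1 (-0.25) was within 1.2-fold. SOX9-AS1 was higher with both inhibitors in CWR22Rv1 cells where SOX9 was lower.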

How the data were processed

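RNA of 6 cell line cultures was sequenced as paired-end reads, and the authors aligned them with HISAT to GRCh38 and ran Cufflinks and Cuffnorm, tools and build being named in the submitters' processing notes. The deposited unit is FPKM per Ensembl gene, normalized between libraries by Cuffnorm. Tool versions, the annotation release and the strand setting are not given in the sources used here. The study's methods name a TruSeq kit, whereas the labels name a stranded KAPA kit with poly(A) selection.

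Of 60658 identifiers, 57047 had a symbol in GENCODE 29, and all 136 list entries matched. Groups came from the labels. Changes were differences of log2(FPKM + 0.1), with the filter at 0.1 FPKM and calls above 1.2-fold and 2-fold. With 1 library a condition, no test, interval or p-value was computed, and 7 comparisons were made. Read totals were not used, so the depth is unknown beyond ratios of FPKM values from 0.001 to 0.05. The functions for changes and calls were run on a copy of 1 library in which randomly chosen genes were shifted 2-fold without noise. That checks their arithmetic only. The members and lists were chosen with earlier results of these data known. Genes outside the members were named by a fixed rule: the 3 genes of a list with the largest smallest change over the 4 inhibitor comparisons in 1 direction and a mean of at least 1 FPKM, the 3 genes closest to each member in pattern, and opposite-strand genes. Exceptions are marked in the text, and 1 item that these rules cover is not reported here. Promoter sequences are from RefSeq on GRCh38.p14. Alternatives were other pseudocounts, filters, scalings and thresholds. Python 3.11.15, pandas 2.3.3, numpy 2.4.6 and matplotlib 3.10.9 were used.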

Additional observations from a re-analysis of the deposited data

Results flagged for a closer look

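The response of 2 members to APO had opposite direction in the lines. GRHL2 was lower with APO in C4-2B MDVR cells (-1.30) and higher in CWR22Rv1 cells (0.58), a gap of -1.88 on the log2 scale. TRPS1 was lower in C4-2B MDVR cells (-0.30) and higher in CWR22Rv1 cells (0.34), a gap of -0.64. With libraries rescaled to equal sums outside the mitochondrial chromosome, the change of TRPS1 in CWR22Rv1 cells was 0.19 and within 1.2-fold. Neither difference was tested, since each condition has 1 library.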

How the results depend on the processing

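No median of the members changed sign under the alternatives run. The threshold moved the counts of members changed, given here with ERG and in either direction. Shares of all genes were not computed above 1.5-fold. Above 2-fold they were computed only for genes lower with an inhibitor, given above. The counts that follow therefore show how the threshold acts on the members and cannot be set against all genes. Above 1.5-fold, 4 members were changed with APO in CWR22Rv1 cells, and 3 between VER and APO in each line. Above 2-fold, C4-2B MDVR cells had 5 changed members for APO and 3 for VER, and 4 and 2 without ERG. CWR22Rv1 cells had 1 for each inhibitor. The inhibitors then differed in 2 members in C4-2B MDVR cells and 1 in CWR22Rv1 cells, and the lines in 4. With APO in CWR22Rv1 cells the balance also turned, from 3 higher and 4 lower to 1 higher and 0 lower. Between the lines 5 higher and 2 lower became 2 and 2, with ERG among the higher members each time. A median is said to move here where it crossed the 1.2-fold line. The median of the members moved with APO in CWR22Rv1 cells to -0.27 without a filter and with a median ratio of 1, and to -0.41 with equal sums outside the mitochondrial chromosome. Between the lines it moved to 0.20 with a filter at 1 FPKM or without ERG, to 0.18 with a median ratio of 1 and to 0.16 outside the mitochondrial chromosome. Between VER and APO in CWR22Rv1 cells it moved to -0.39 with equal sums (TPM). The cause of these moves was not tested. The other 55 values of medians stayed on their side of that line but could differ in size. Over all settings the APO median in the C4-2B MDVR line ranged from -1.44 to -1.07 and the VER median from -0.59 to -0.49, and in CWR22Rv1 they ranged from -0.41 to -0.14 (TPM) and from -0.45 to -0.27. Between VER and APO it ranged from 0.28 to 0.63 (a pseudocount of 0.01) in the former line and from -0.39 to -0.02 (no filter) in the latter, and between the lines from 0.16 to 0.34. Scaling to equal sums shifted the median of all genes over 1 FPKM to -0.13 for APO in the C4-2B MDVR line, 0.11 for APO in CWR22Rv1 and -0.21 between the inhibitors there. Equal sums outside the mitochondrial chromosome and the omission of ERG were chosen after seeing the data. Of 447 values of single genes under other pseudocounts, filters and scalings, 12 crossed the 1.2-fold line, among them SOX9 with APO in both lines. No paired analysis was possible because each condition has 1 library and no test was made. Leaving out a replicate was likewise not possible. Depth is known only as a ratio between libraries, so levels near 0.1 FPKM carry an unknown counting error.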

Other observations

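A list of 15 genes known to respond to the MAPK pathway, which does not hold the PEA3 factors, was drawn up after the values of ETV1 had been seen, and it is given as values only. In CWR22Rv1 cells 10 were higher and 2 lower with APO (median 0.51), and 4 higher and 7 lower with VER (median -0.23). Of all genes in this line, 35.6% were higher and 39.2% lower with APO, and 32.1% and 32.3% with VER. Between the inhibitors 3 were higher and 10 lower with VER than with APO (median -0.95), beside 37.3% and 34.5% of all genes. In C4-2B MDVR cells 14 passed, with 6 higher and 5 lower with APO (median 0.06) and 3 higher and 6 lower with VER (median -0.09). The shares of all genes there were 37.7% higher and 35.4% lower with APO, and 35.6% and 34.9% with VER. The single genes differed, and the 3 named next were chosen after their values were seen. In CWR22Rv1 cells with DMSO, APO and VER, DUSP6, a phosphatase that acts on ERK, stood at 4.82, 19.3 and 3.79 FPKM, with VER below DMSO. The related phosphatase DUSP4 stood at 1.34, 6.10 and 2.98 FPKM, and IER3 at 3.19, 4.82 and 7.75 FPKM, with both inhibitors above DMSO.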
